A study of Mus musculus with 23 samples.

Results

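Transcript levels of 9 genes were followed across naive, activated and plasmablast states of mouse spleen B cells that carried, or did not carry, a guide RNA against Irf8. The genes were Kmo, Gpam, Pafah1b3, Diras2, Rgl1, Trib2, Ehd4, Wfdc17 and Dkk3, 9 of the 11944 genes listed in either of the study's expression tables. They were chosen by name because their RPKM (reads scaled to gene length and library size) was lower in guide-carrying than in unguided cells, naive or cultured. That difference is therefore described here without a test. Of the 9 genes, 8 were in the naive table, 8 in the cultured table and 7 in both. Wfdc17 was analysed in naive cells only and Dkk3 in cultured cells only.

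The study sequenced polyA RNA of sorted spleen B cells in 23 libraries of 8 groups. KO cells were labelled IRF8 KO, carried 1 of 2 guides and were sorted as positive for Thy1.1, and WT cells were labelled IRF8 WT, carried no guide and were sorted as negative for it. Naive cells, untreated and sorted with B220 and without CD11b, F4/80 and Thy1.2, gave 3 KO libraries with guide 1 and 3 WT libraries of the same arm, and 3 KO libraries with guide 2 and 3 WT libraries of that arm. Cultured cells, of guide 1 and their WT cells, had been kept with IL-2 at 20 ng/ml, IL-5 at 5 ng/ml and LPS at a labelled 20 mg/ml for 72 hours. They were sorted as activated B cells, with GL7 and B220 but without CD138 (3 KO and 3 WT libraries), and as plasmablasts, with CD138 (3 KO and 2 WT libraries). The labels give neither the strain and age of the mice nor the way the guide was delivered. Since guides against other genes were not part of the design, loss of Irf8, the presence of any guide and the Thy1.1 sort cannot be told apart.

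IRF8 is an interferon regulatory factor that is expressed throughout B cell development and is known for its part in follicular and germinal centre B cells. It binds DNA weakly alone and more strongly beside partners such as the ETS factor PU.1, at composite sites in which an ETS core (GGAA) and an IRF core (GAAA) stand next to each other. The 9 genes do not form 1 pathway. Kmo, Gpam and Pafah1b3 encode metabolic enzymes, Diras2, Rgl1 and Trib2 encode intracellular signalling proteins, Ehd4 encodes a protein of endosomal traffic, and Wfdc17 and Dkk3 encode secreted proteins.

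Libraries held an estimated 14500000 to 22200000 reads in naive cells and 4320000 to 26900000 in cultured cells, except plasmablast KO library 3 with 51300. Irf8 RNA was present in all KO libraries, in naive cells at a mean of 69.9 ± 9.35 RPKM with guide 1 against 95.7 ± 2.35 in WT, and of 49.6 ± 1.76 with guide 2 against 85.4 ± 4.86 in WT (SD, n = 3 each). Activated KO libraries 1 and 2 had 69.2 and 68.1 RPKM of Irf8, against 108 and 93.6 in WT libraries 1 and 2. Irf8 was lower in plasmablasts and overlapped between genotypes there. Plasmablast KO libraries had 17.5, 21.4 and 24.2 RPKM, the last from 11 reads, against 24.6 and 17.6 in WT. Several libraries stood apart. Naive KO guide 1 library A listed 1405 genes at 0 and had a median correlation of 0.87 with the other naive libraries, which had 0.959 to 0.979. The activated library labelled KO 3 had 0.093 RPKM of Thy1 and 92.4 of Irf8, and the activated library labelled WT 3 had 25.7 of Thy1 and 59.998 of Irf8, so both went against their labels. Naive WT library A of the guide 1 arm held 4.93 RPKM of Thy1, and the other naive WT libraries at most 0.052. Results in cultured cells are therefore given with all libraries and without plasmablast KO library 3 and both activated libraries 3.

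Windows from 250 bases before to 50 bases after the start site were taken from RefSeq (GRCm38.p6) and were matched for 7 of the 9 genes, in 9 windows. They were searched on both strands for an ETS-IRF site (GGAANNGAAA), an IRF-ETS site (GAAANNGGAA), an interferon response site (GAAANNGAAA) and a PU.1 site (GAGGAAGT). The first of these has its cores in the opposite order to the second, and overlapping matches were kept. The stretches that hold a match are shown because these are the kinds of site at which IRF8 and its partner bind, with the matched letters in capitals. All are written 5′ to 3′ on the strand of the gene. For Kmo and Diras2 the match lies within an exon of the GENCODE annotation that starts upstream of the RefSeq site used. For Diras2 that site, at 52530836, lies inside the RefSeq gene, which reaches 52531354. For both, 30 bases around the match are shown.
Kmo, plus strand, chr1:175632079-175632108: aacacttatcaGAGGAAGTgagctttgacc
Wfdc17, plus strand, chr11:83703806-83703990: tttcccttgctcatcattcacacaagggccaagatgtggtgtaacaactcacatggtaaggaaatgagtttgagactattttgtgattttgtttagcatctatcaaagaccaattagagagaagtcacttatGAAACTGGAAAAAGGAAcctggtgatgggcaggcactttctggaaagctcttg
Diras2, minus strand, chr13:52531049-52531078: cacagctacaGGAACAGAAAccttgcccag

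The Wfdc17 stretch holds 2 overlapping IRF-ETS matches, GAAACTGGAA with its first base at -118 and GAAAAAGGAA at -111 from the start site. Diras2 has 1 ETS-IRF match at -232 from the internal start site used, and Kmo has 1 PU.1 match at -103. Of all 32851 windows of this length, 2.72% held the ETS-IRF site, 2.8% the IRF-ETS site, 3.44% the interferon response site and 3.2% the PU.1 site. At least 1 of the first 3 kinds was in 8.37% of all windows and in 2 of the 9 windows of these genes. A match describes letters in the window only. No binding was measured here.

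In naive cells all 8 measured genes were lower in KO cells with either guide, and for each of them the highest of the 6 KO libraries was under the lowest of the 6 WT libraries. Of the 10137 genes tested in naive cells, 0.927% showed this pattern, and since the genes were chosen on this contrast nothing is read from the count. The mean level in KO cells was 12.1% to 39.9% of the WT mean with guide 1 and 11.1% to 64.5% with guide 2. Without KO guide 1 library A it was 18.1% to 42.3% with guide 1. The RNA is from sorted bulk cells, so fewer cells that express a gene and less RNA per cell cannot be told apart.

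**Figure D1:**
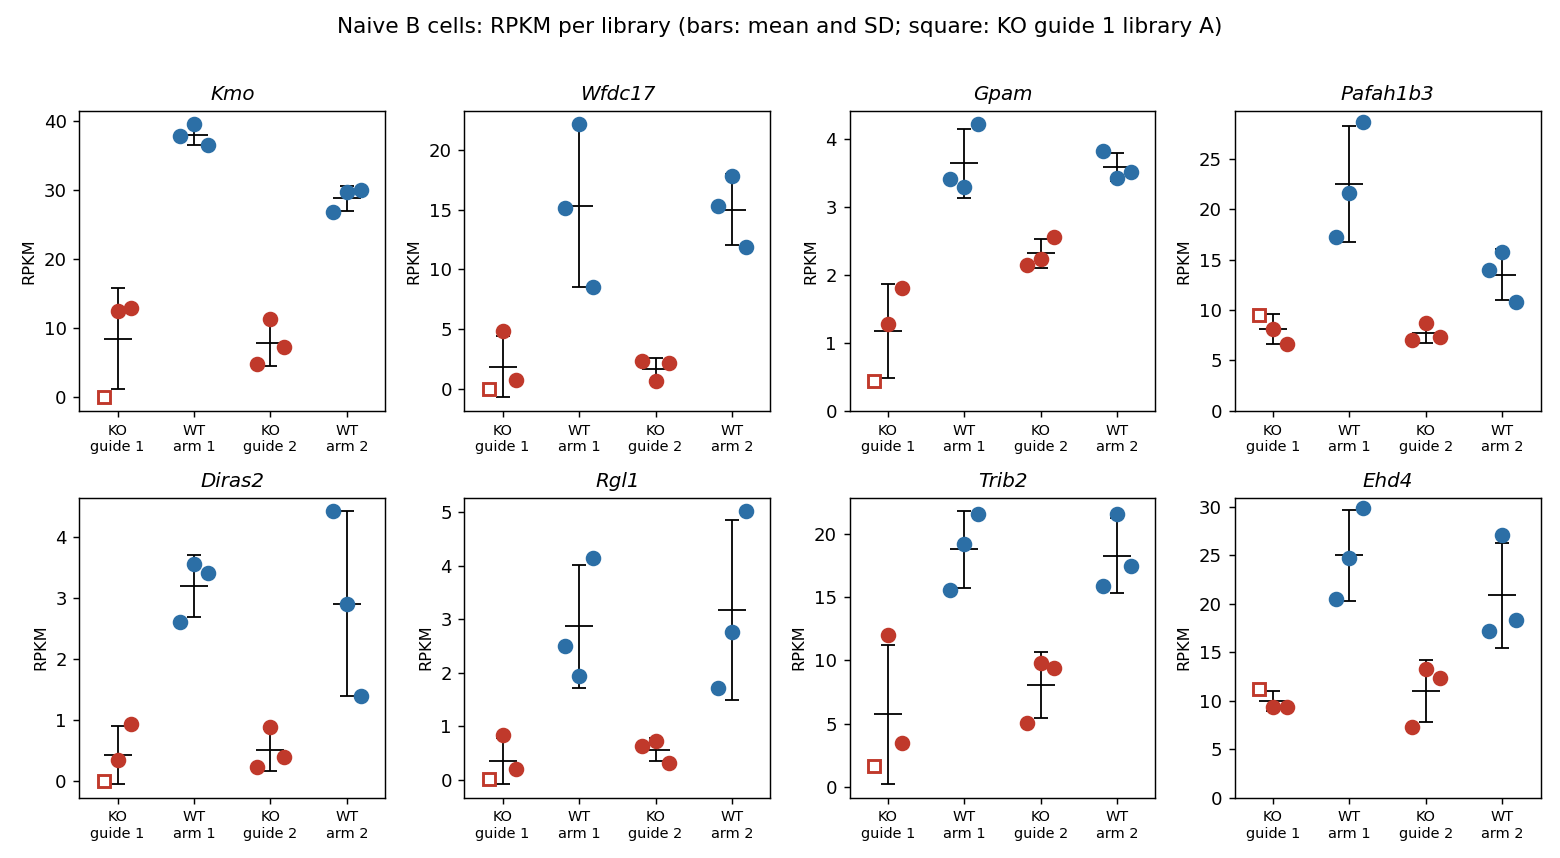
RPKM of the 8 genes measured in naive cells, with 1 point per library and KO cells left of the WT cells of the same guide arm. Horizontal lines are group means and bars are SD (n = 3), and the open square is KO guide 1 library A. In each panel the 6 KO points lie below the 6 WT points, with the narrowest gap for Pafah1b3, between 9.55 in KO and 10.8 in WT.

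Kmo (chromosome 1, 175632193 to 175660853, GRCm38.p6) encodes kynurenine 3-monooxygenase, a mitochondrial enzyme that converts kynurenine to 3-hydroxykynurenine on the way from tryptophan to NAD. In naive cells Kmo was at 0, 12.5 and 12.972 RPKM in KO libraries of guide 1, against 37.9, 39.5 and 36.5 in WT libraries of that arm. With guide 2 it was at 4.88, 11.4 and 7.33 RPKM in KO libraries, against 26.8, 29.7 and 30.1 in WT libraries. The lowest WT library, at 26.8, was above the highest KO library, at 12.972, and KO guide 1 library A had no Kmo read. The KO minus WT difference in log2(RPKM + 1), the scale of all differences below, was -2.77 with guide 1 and -1.82 with guide 2 (SE 0.74 each). Without KO guide 1 library A the difference with guide 1 was -1.51.

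Kmo stayed measurable in culture. Activated KO libraries 1 and 2 had 5.83 and 4.68 RPKM, against 11.4 and 9.92 in WT libraries 1 and 2, and their mean was 49.3% of the WT mean. The library labelled KO 3 had 8.89 and the library labelled WT 3 had 2.84, the reverse order. Plasmablasts had 0.493, 0.379 and 2.67 RPKM in KO libraries, the last from 1 read, against 0.859 and 0.538 in WT libraries. Levels in plasmablasts were thus below those of all activated libraries in both genotypes, with the KO library of 1 read, at 2.67, just under the library labelled WT 3.

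Gpam (chromosome 19, 55067635 to 55127319) encodes the mitochondrial glycerol-3-phosphate acyltransferase that starts glycerolipid synthesis. Naive KO libraries of guide 1 had 0.445, 1.28 and 1.81 RPKM, against 3.42, 3.298 and 4.24 in WT. With guide 2, KO libraries had 2.16, 2.24 and 2.56 RPKM, against 3.84, 3.44 and 3.51 in WT. This was the smallest difference of the 8 genes with guide 2, -0.47 (SE 0.24), while that with guide 1 was -1.14 (SE 0.24). In culture the genotypes overlapped, with 5.37, 4.92 and 4.36 RPKM in activated libraries labelled KO 1 to 3, against 4.57, 5.02 and 5.502 in those labelled WT 1 to 3. Plasmablast KO libraries had 3.204, 3.42 and 14.2 RPKM, the last from 7 reads, against 3.404 and 2.89 in WT.

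Pafah1b3 (chromosome 7, 25295048 to 25297986) encodes a catalytic subunit of the intracellular enzyme that removes the acetyl group from platelet-activating factor. Naive KO libraries had 9.55, 8.16 and 6.62 RPKM with guide 1, against 17.2, 21.6 and 28.7 in WT. With guide 2 they had 6.996, 8.71 and 7.32 RPKM, against 13.9, 15.8 and 10.8 in WT. The KO levels of the guides were alike in range, and the WT cells of the guide 2 arm were lower than those of the guide 1 arm, by a log2 difference of -0.68 (SE 0.21). For the other genes measured in naive cells this difference between WT arms lay between -0.39 (Kmo) and 0.07 (Rgl1). It was not tested. The KO minus WT difference was -1.35 with guide 1 and -0.73 with guide 2 (SE 0.21 each).

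In activated cells Pafah1b3 had the opposite order, with 47.4 and 42.9 RPKM in KO libraries 1 and 2, against 26.7 and 30.011 in WT libraries 1 and 2. The KO mean was 159% of the WT mean. The library labelled KO 3 had 25.5 and the library labelled WT 3 had 40.5, again the reverse. Plasmablast KO libraries had 46.3, 58.7 and 16.3 RPKM, the last from 3 reads, against 49.6 and 51.3 in WT, and overlapped them.

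Diras2 (chromosome 13, 52504375 to 52531354) encodes a small GTPase of the RAS family, and Rgl1 (chromosome 1, 152516762 to 152766308) encodes an exchange factor that links RAS to RAL GTPases. Both were low. Diras2 was at 0, 0.352 and 0.946 RPKM in naive KO libraries of guide 1, against 2.62, 3.56 and 3.41 in WT, and at 0.236, 0.895 and 0.393 in KO libraries of guide 2, against 4.43, 2.905 and 1.399 in WT. These values rest on 0 to 90 reads per KO library, against 132 to 379 per WT library. Rgl1 was at 0.008, 0.832 and 0.206 RPKM in naive KO libraries of guide 1, against 2.501, 1.95 and 4.15 in WT, and at 0.633, 0.73 and 0.315 in KO libraries of guide 2, against 1.72, 2.77 and 5.02 in WT. Their differences were similar between guides, -1.60 and -1.32 for Diras2 (SE 0.33 each) and -1.53 and -1.35 for Rgl1 (SE 0.34 each), with guide 1 first. Adding 1 to values this low makes the differences smaller than the ratios. The KO means were 13.5% and 17.5% of WT for Diras2 and 12.2% and 17.6% for Rgl1.

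In activated cells Diras2 was at 1.45, 1.32 and 1.94 RPKM in libraries labelled KO 1 to 3, against 1.55, 1.68 and 0.761 in those labelled WT 1 to 3. Rgl1 was at 0.342, 0.432 and 0.638 RPKM in libraries labelled KO, against 0.691, 0.708 and 0.374 in those labelled WT. For both, KO libraries 1 and 2 lay below WT libraries 1 and 2 and the libraries labelled 3 had the reverse order. In plasmablasts Diras2 was under 1 RPKM in all libraries, with 0.502, 0.01 and 0 in KO libraries against 0.186 and 0.242 in WT libraries. Rgl1 was at 0.411, 0.182 and 0 RPKM in plasmablast KO libraries, against 0.827 and 0.422 in WT libraries. Rgl1 did not reach 1 RPKM in any cultured library and was not in the cultured fit.

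Trib2 (chromosome 12, 15791725 to 15816962) encodes a pseudokinase that joins the ubiquitin ligase COP1 to targets such as C/EBP alpha. Naive KO libraries of guide 1 had 1.69, 12 and 3.51 RPKM, against 15.6, 19.2 and 21.5 in WT. With guide 2, KO libraries had 5.05, 9.79 and 9.37 RPKM, against 15.9, 21.6 and 17.4 in WT. The KO libraries of guide 1 were spread over a wide range, and the highest of them was below the lowest WT library. The difference was -1.86 with guide 1 and -1.12 with guide 2 (SE 0.44 each). Activated libraries labelled KO 1 to 3 had 17.8, 15.8 and 13.2 RPKM, against 14.5, 13.9 and 19.7 in those labelled WT 1 to 3. KO libraries 1 and 2 were above WT libraries 1 and 2 there, with a KO mean at 118% of WT. Plasmablast KO libraries had 15.5, 15.6 and 3.56 RPKM, the last from 1 read, against 13.8 and 14.7 in WT.

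Ehd4 (chromosome 2, 120089487 to 120154575) encodes an EH domain ATPase that shapes endosomal membranes during recycling. Naive KO libraries had 11.2, 9.37 and 9.36 RPKM with guide 1, against 20.5, 24.7 and 29.8 in WT. With guide 2 they had 7.32, 13.3 and 12.3 RPKM, against 17.2, 27.1 and 18.3 in WT. KO guide 1 library A was here the highest of its group, unlike for Kmo, Trib2, Gpam, Wfdc17, Diras2 and Rgl1, where it was the lowest. The difference was -1.23 with guide 1 and -0.88 with guide 2 (SE 0.23 each). Activated libraries labelled KO 1 to 3 had 34.1, 28.049 and 26.6 RPKM, against 30.8, 27.7 and 31.7 in those labelled WT 1 to 3. Plasmablast KO libraries had 41.3, 41.3 and 26.2 RPKM, against 48.1 and 41.6 in WT. Activated libraries overlapped between genotypes, and in plasmablasts the KO libraries lay just below the WT ones, with KO library 3 resting on 6 reads.

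Wfdc17 (chromosome 11, 83704056 to 83706269) encodes a small secreted protein with a WAP domain that is known in mice from activated macrophages and microglia. Naive KO libraries of guide 1 had 0, 4.79 and 0.754 RPKM, against 15.2, 22.2 and 8.56 in WT. With guide 2, KO libraries had 2.29, 0.61 and 2.12 RPKM, against 15.3, 17.9 and 11.9 in WT. The KO values rest on 0 to 41 reads and the WT values on 90 to 209, as the transcript is short. Wfdc17 kept the smallest share of its WT level with guide 2, 11.1%. With guide 1 it kept 12.1%, next to Rgl1 at 12.2%, and both kept 18.1% without KO guide 1 library A. The difference of Wfdc17 was -2.82 with guide 1 and -2.64 with guide 2 (SE 0.54 each).

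Dkk3 (chromosome 7, 112116019 to 112159482) encodes a secreted glycoprotein of the dickkopf family, whose other members bind Wnt co-receptors. In activated cells KO libraries 1 and 2 had 3.29 and 4.13 RPKM, against 13.1 and 9.72 in WT libraries 1 and 2, and the KO mean was 32.5% of the WT mean. The library labelled KO 3 had 12.9 and the library labelled WT 3 had 4.07. At number 3 the library with the high Thy1 level was the lower one. Dkk3 was chosen on activated cells, and libraries 3 lay nearer to the opposite label for the other genes too. Nothing is therefore read from this order. Plasmablasts held little Dkk3, with 0.078, 0.238 and 0 RPKM in KO libraries against 0.255 and 0 in WT libraries, and the genotypes overlapped.

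The guides were compared within the naive fit. The genes were chosen on these libraries, so the comparison is a description without a test. With all libraries the guide 2 difference minus the guide 1 difference ran from 0.17 for Rgl1 (SE 0.48) to 0.95 for Kmo (SE 1.05). The SE was largest for Kmo and smallest for Pafah1b3, which had 0.62 (SE 0.29), and Gpam had 0.67 (SE 0.35). These values do not show whether the guides acted alike. For 3 genes the larger difference with guide 1 rested on KO guide 1 library A. Without it Kmo differed by -1.51 with guide 1 and -1.82 with guide 2, Wfdc17 by -2.26 and -2.64, and Rgl1 by -1.34 and -1.35, with guide 1 first. The guides also came closer for Diras2 (-1.36 and -1.32), Trib2 (-1.36 and -1.12) and Gpam (-0.87 and -0.47) without that library. They did not for Ehd4 (-1.31 and -0.88) and Pafah1b3 (-1.46 and -0.73). On the RPKM scale Wfdc17 kept 12.1% of its WT level with guide 1 (18.1% without that library) and 11.1% with guide 2, which is the opposite order to its log2 differences with all libraries.

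**Figure D2:**
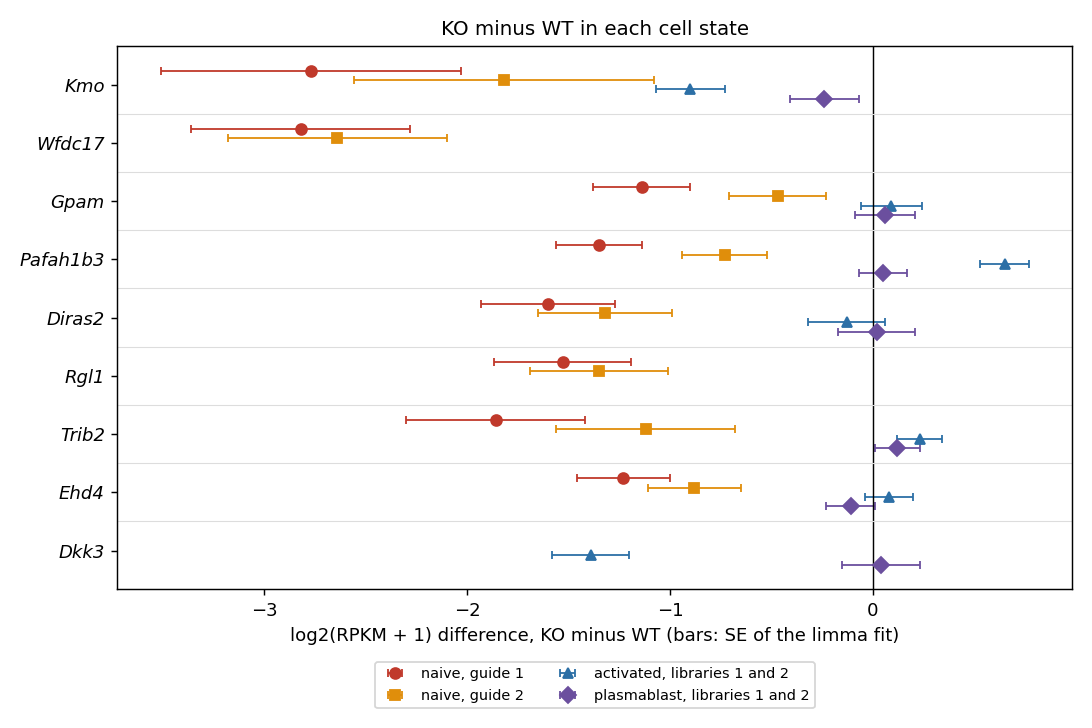
KO minus WT differences in log2(RPKM + 1) for each gene, in naive cells with guide 1 and guide 2 and in activated B cells and plasmablasts without the 3 libraries that stood apart. Bars are SE of the limma fit. Naive differences are all below 0, while in activated cells Dkk3 (-1.39) and Kmo (-0.90) are lower and Pafah1b3 (0.65) is higher. In plasmablasts those of the fitted genes lie between -0.24 and 0.12. Kmo, Dkk3 and Diras2 were under 1 RPKM in these plasmablast libraries, where adding 1 keeps differences small. Rgl1 was not in the cultured fit and has no point there.

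Across the activated libraries as labelled, none of the 8 genes had its KO libraries wholly under its WT libraries (1.22% of 9986 tested genes did). Among libraries 1 and 2 alone, Kmo, Dkk3, Diras2 and Rgl1 were lower without overlap, as 24.9% of all tested genes were, and Trib2 and Pafah1b3 were higher without overlap, as 24.1% were. The KO minus WT difference without the 3 libraries was -1.39 for Dkk3 (SE 0.19), -0.90 for Kmo (SE 0.17) and 0.65 for Pafah1b3 (SE 0.12). With all libraries it was -0.44, -0.15 and 0.22 for the same genes (SE 0.48, 0.51 and 0.44). In plasmablasts Kmo, Rgl1 and Ehd4 were lower without overlap in KO libraries 1 and 2, as 8.4% of tested genes were, and Trib2 was higher, as 19.3% were. Differences there without the 3 libraries were -0.24 for Kmo (SE 0.17), -0.11 for Ehd4 (SE 0.12) and 0.12 for Trib2 (SE 0.11). Kmo and Rgl1 were under 1 RPKM in these libraries, with KO means at 62.4% and 47.5% of the WT means.

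**Figure D3:**
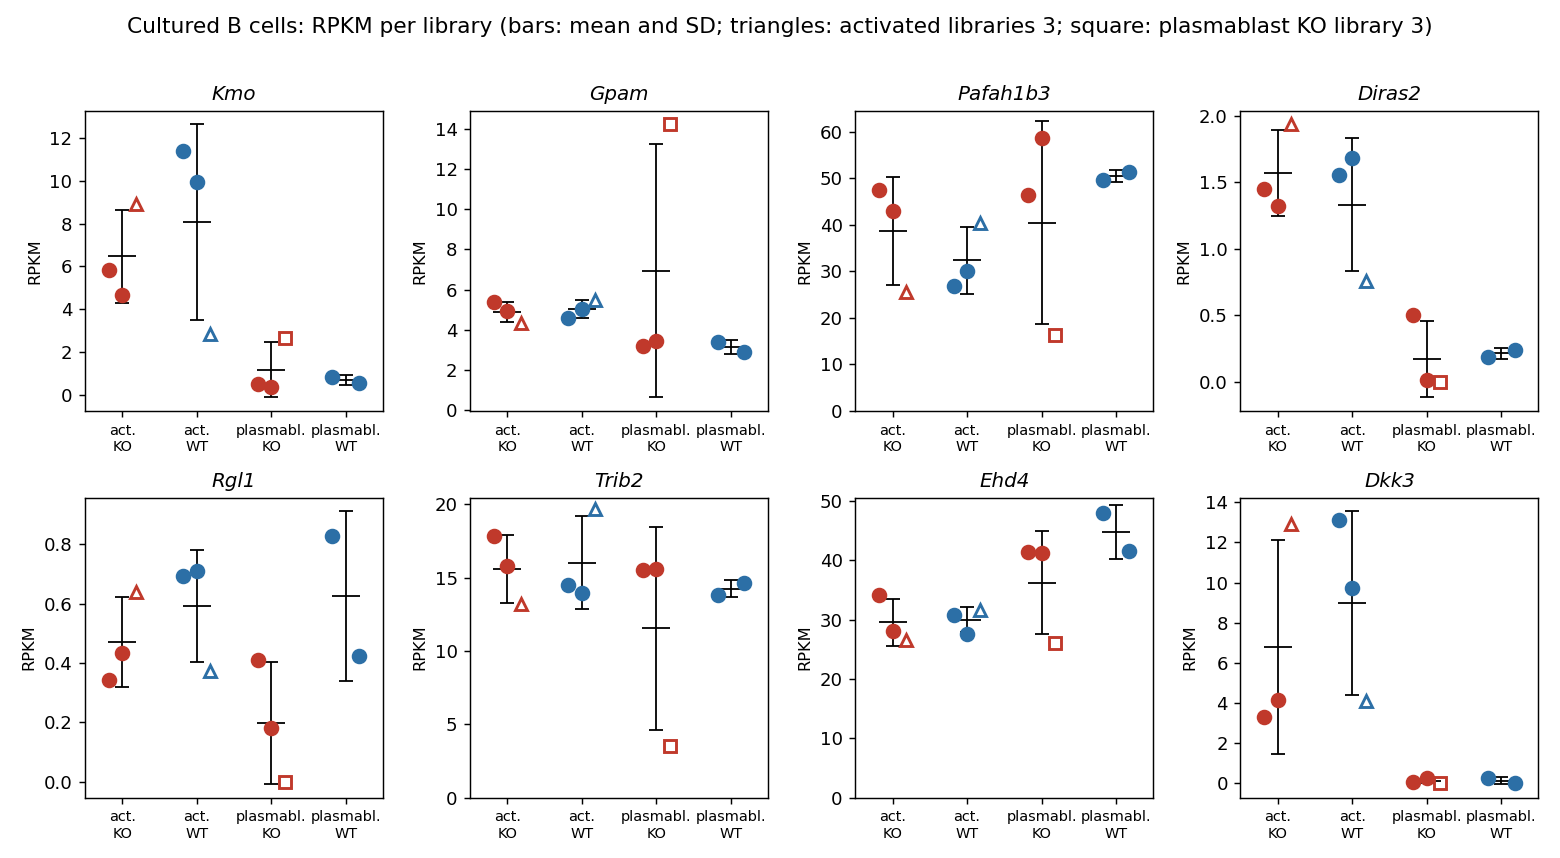
RPKM of the 8 genes measured in cultured cells, with 1 point per library and KO cells left of WT cells in each state. Horizontal lines are group means and bars are SD. Triangles are the activated libraries labelled KO 3 and WT 3 and the square is plasmablast KO library 3. The triangle labelled KO lies nearer to the mean of WT libraries 1 and 2, and the triangle labelled WT nearer to the mean of KO libraries 1 and 2. For Gpam, Ehd4, Diras2 and Trib2 both triangles lie outside these means. The means were close for Gpam (5.15 in KO and 4.8 in WT) and Ehd4 (31.1 and 29.2). How many of all genes show this order was not computed, so nothing is read from it about these genes.

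The change from activated B cell to plasmablast was not the contrast on which the genes were chosen, but its activated and plasmablast libraries were among the values used. It was fitted with limma over all 9986 genes of the cultured fit (adjusted p by Benjamini and Hochberg). Kmo, Dkk3 and Diras2 reached the filter's minimum of 1 RPKM in 5 or 6 of 6 activated libraries and in at most 1 of 5 plasmablast libraries. They entered the fit through activated cells alone, so a fall was the only call open to them, and their differences are given as a description without a test. With all libraries Dkk3 differed by -2.61 in KO cells (SE 0.48) and -3.03 in WT cells (SE 0.54), Kmo by -1.89 in KO cells and -2.25 in WT cells, and Diras2 by -1.15 in KO cells (SE 0.27) and -0.92 in WT cells. Without the 3 libraries Dkk3 differed by -2.02 in KO cells and -3.46 in WT cells (SE 0.19 each), Kmo by -2.12 and -2.78 (SE 0.17 each), and Diras2 by -0.95 and -1.11 (SE 0.19 each), with KO cells first.

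Trib2, Gpam, Ehd4 and Pafah1b3 were at 1 RPKM or more in all activated and all plasmablast libraries and were tested. With all libraries none of the 4 was called by limma in either genotype (adjusted p = 0.336 for Ehd4 in WT cells at the lowest), where 0.771% of all tested genes rose and 2.67% fell in KO cells and 0.33% rose and 1.43% fell in WT cells. The SE of the WT comparison here includes the spread of plasmablast KO library 3, as the fit pools the spread of each gene over all groups. Without the 3 libraries each group held 2 libraries and the SE were smaller. Of 9861 tested genes 12.1% rose and 21.5% fell in KO cells, and 15.5% rose and 30.7% fell in WT cells. In that fit Gpam fell and Ehd4 rose in plasmablasts of both genotypes, and Pafah1b3 rose in WT plasmablasts. Gpam differed by -0.51 in KO cells (SE 0.15, adjusted p = 0.0191) and by -0.48 in WT cells (SE 0.15, adjusted p = 0.0180), while with all libraries the difference in KO cells was 0.16 (SE 0.42).

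In the same fit Ehd4 was higher by 0.41 in KO cells (SE 0.12, adjusted p = 0.0194) and by 0.60 in WT cells (SE 0.12, adjusted p = 0.00129). Pafah1b3 differed by 0.21 in KO cells (SE 0.12, adjusted p = 0.221) and rose by 0.81 in WT cells (SE 0.12, adjusted p = 0.000162), and the difference between genotypes was not tested. Trib2 did not pass in either genotype, with -0.10 in KO cells (95% interval -0.35 to 0.14) and 0.00 in WT cells (95% interval -0.24 to 0.25).

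**Figure D4:**
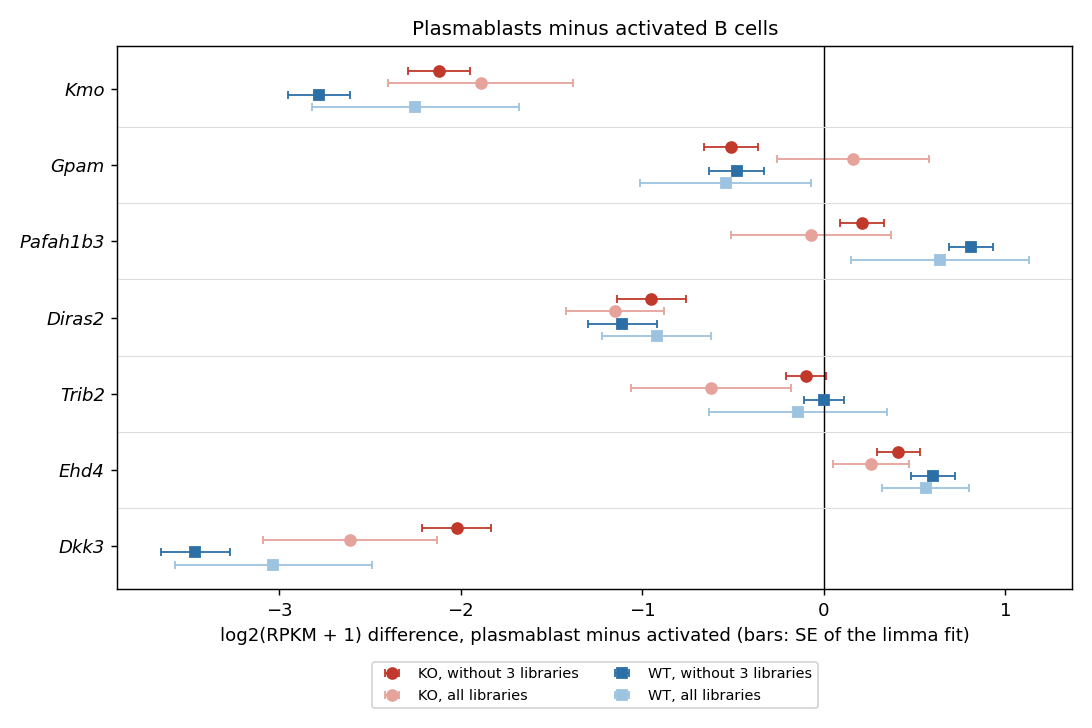
Plasmablast minus activated B cell differences in log2(RPKM + 1) for the 7 genes of the cultured fit, for KO (circles) and WT (squares), without the 3 libraries (dark) and with all libraries (pale). Bars are SE of the limma fit. Kmo, Dkk3 and Diras2 lie below 0 in all 4 settings, Ehd4 lies above 0, and Trib2 without the 3 libraries lies at 0.00 in WT cells and -0.10 in KO cells.

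Other genes of the same pathways were read in the naive KO minus WT comparison, in which 1.03% of tested genes rose and 0.858% fell. Around Kmo, 1 of 11 tested genes of kynurenine and NAD synthesis fell and 0 rose. The gene that fell was Haao, which encodes the enzyme that acts after kynureninase, at 24.5 ± 2.10 RPKM in KO cells and 33.8 ± 3.43 in WT cells (SD, n = 6 each; limma log2 difference -0.45, adjusted p = 0.0294). All 6 KO libraries had less Haao than all 6 WT libraries, and the call was lost in 10 of 17 alternative settings. Around Pafah1b3, 2 of 6 tested genes of platelet-activating factor metabolism rose and 0 fell. Lpcat2, which makes platelet-activating factor, was at 21.6 ± 6.77 RPKM in KO cells and 6.99 ± 2.31 in WT cells (SD, n = 6 each; limma log2 difference 1.51, adjusted p = 0.00412). Pla2g7, the secreted enzyme that degrades it, was at 9.98 ± 4.58 RPKM in KO cells and 2.2 ± 1.5 in WT cells (SD, n = 6 each; limma log2 difference 1.79, adjusted p = 0.0166). The Pla2g7 call was lost in 4 of 17 settings.

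Around Wfdc17, 1 of 2 tested genes of WAP domain proteins and granule proteases fell. It was Wfdc21, 40.7 kb from Wfdc17 on chromosome 11, at 0, 0 and 0 and at 0, 3.25 and 2.75 RPKM in KO libraries, with guide 1 before guide 2, against 10.1, 5.604 and 20.7 and at 4.38, 7.22 and 1.99 RPKM in WT libraries of the same arms (limma log2 difference -2.28, adjusted p = 0.0126). The KO and WT libraries overlapped, with KO libraries of guide 2 at up to 3.25 RPKM and a WT library at 1.99. With limma no gene was called among 14 tested genes of glycerolipid synthesis, 16 of RAS, RAL and RAP GTPases, 14 of EHD proteins and the recycling endosome, 8 of tribbles pseudokinases and partners, and 7 of dickkopf proteins and Wnt readouts, of which 2, 2, 1, 1 and 3 were at an unadjusted p under 0.05, as 12.7% of all tested genes were. Between KO and WT activated cells no gene of these 8 lists was called, where limma called 0% of all tested genes with all libraries and 0.71% without the 3 libraries. The same held between KO and WT plasmablasts, where it called 0% and 0.071%. At an unadjusted p under 0.05 there were 0 of 75 genes of the lists in either comparison with all libraries, and 4 (5.33%) in activated cells and 7 (9.33%) in plasmablasts without the 3, where 12% and 5.96% of all tested genes were.

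Between plasmablasts and activated cells, Kynu, the kynureninase next to Kmo in the pathway, was under 1 RPKM in all plasmablast libraries. With all libraries it was at 0.158 ± 0.138 RPKM in KO plasmablasts and 2.88 ± 0.621 in KO activated cells (SD, n = 3 each; limma log2 difference -1.74). It was at 0.073 ± 0.0877 RPKM in WT plasmablasts (SD, n = 2) and 3.01 ± 1.57 in WT activated cells (SD, n = 3; limma log2 difference -1.82). Without the 3 libraries Haao differed by -2.15 in KO cells and -2.90 in WT cells. Like Kmo, both entered the fit through activated cells alone, so no test is read for them. Slpi, a secreted WAP domain protease inhibitor, rose in plasmablasts of both genotypes, by 1.87 in KO cells (adjusted p = 0.0457, limma) and 2.44 in WT cells (adjusted p = 0.0391, limma). Of 17 settings, 10 lost the call of Slpi in KO cells and 8 that in WT cells, with the direction kept. Of the 75 tested genes of the 8 lists, 1 rose and 3 fell in KO plasmablasts and 1 rose and 1 fell in WT plasmablasts with all libraries, and without the 3 libraries 10 (13.3%) rose and 18 (24%) fell in KO and 9 (12%) rose and 24 (32%) fell in WT. The counts of falls include genes that, like Kynu, could only fall, and without the 3 libraries the shares were near those of all tested genes given above. Beside Kynu, the genes that fell in KO plasmablasts with all libraries belong to the list around Ehd4. Pacsin2, a membrane-shaping partner of EHD proteins, was at 7.79 ± 0.855 RPKM in KO plasmablasts and 13.6 ± 1.26 in KO activated cells (SD, n = 3 each; limma log2 difference -0.73, adjusted p = 0.0381). Rab11a, a GTPase of recycling endosomes, was at 6.84 ± 2.81 RPKM in KO plasmablasts and 16.8 ± 1.24 in KO activated cells (SD, n = 3 each; limma log2 difference -1.26, adjusted p = 0.0447), and 12 of 17 settings lost each of these calls. Of the relatives of Ehd4, Ehd3 fell in both genotypes without the 3 libraries, with -1.19 in KO cells (adjusted p = 0.00132, limma) and -1.62 in WT cells (adjusted p = 7.72e-05, limma). Of those of Trib2, Trib1 rose by 0.77 in KO cells (adjusted p = 0.000588, limma) and 1.26 in WT cells (adjusted p = 6.62e-06, limma), and Trib3 fell, with -0.92 in KO cells (adjusted p = 0.0283, limma) and -1.70 in WT cells (adjusted p = 0.000456, limma).

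Markers of B cell subsets moved in the same naive comparison. All 8 B cell markers were present, with sums of 2930 to 3730 RPKM in KO libraries and 2990 to 3440 in WT libraries. Of 12 marginal zone B cell markers 6 rose (among them S1pr3, Gpr34 and Cr2) and none fell, with sums of 549 to 1030 RPKM in KO libraries and 193 to 476 in WT libraries. Of 8 follicular markers Fcer2a and Klf2 fell, with sums of 911 to 1300 RPKM in KO libraries and 1250 to 1570 in WT libraries. Of 4 tested transitional markers Vpreb3 and Myb fell, with sums over the 5 listed markers of 19.2 to 58.2 RPKM in KO libraries and 57.3 to 125 in WT libraries. At an unadjusted p under 0.05 (limma) were 11 of 12 marginal zone, 7 of 8 follicular and all 4 tested transitional markers. Their median log2 differences were 1.15, -0.36 and -1.02, in that order. Of the B cell markers 2 of 8 were at such a p, as were 2 of 7 plasma cell markers and 12.7% of all tested genes. None of 4 tested B-1 cell markers was called (2 were at an unadjusted p under 0.05), but the sum over 7 listed markers was 14 to 40.7 RPKM in KO libraries and 11.8 to 15.2 in WT libraries, and 5 of 6 KO libraries were above all WT libraries. Of 7 tested plasma cell markers Sdc1 fell, with sums of 176 to 282 RPKM in KO libraries and 160.0 to 239 in WT libraries. Of 5 tested natural killer markers Prf1 rose and none was called as a fall, with sums of 2.3 to 5.78 RPKM in KO libraries and 0.931 to 14.5 in WT libraries. The median log2 difference of these 5 markers was however below 0, at -0.63, and 3 were at an unadjusted p under 0.05 (limma). The part of these subsets in the lower levels of the 8 genes was not tested.

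For macrophages and monocytes 10 of 14 markers were listed and 0 of 6 tested ones were called, with sums of 5.01 to 54.8 RPKM in KO libraries and 7.15 to 25.3 in WT libraries. The highest sum was that of KO guide 1 library A, and the other KO libraries had at most 11.5. In that library 3 of the 10 markers, among them Csf1r and Cd68, were at 0, while C1qa at 13.3 RPKM and Adgre1 at 8.71 were at their highest over all naive libraries. Over all libraries Adgre1 (F4/80) was at 0.068 to 8.71 RPKM in KO and 2.37 to 7.98 in WT, Cd68 at 0 to 5.77 in KO and 1.56 to 4.98 in WT, C1qa at 0 to 13.3 in KO and 0 to 2.15 in WT, and Csf1r at 0 to 0.553 in KO and 0.007 to 1.35 in WT. The part of such cells in the values of Wfdc17 and the other genes was not tested. For dendritic cells 0 of 2 tested markers were called, with sums of 0.051 to 3.22 RPKM in KO libraries and 1.04 to 3.71 in WT libraries, and no marker of the T cell or neutrophil lists was in the naive table.

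The genes whose levels followed these 8 most closely over the 12 naive libraries were found by Pearson r of log2(RPKM + 1), as a description, since KO and WT libraries differ in all of them. Kmo was closest to Rhoq (r = 0.97), Cxcr4 and Scimp (r = 0.96 each), and Wfdc17 to Fcer2a (r = 0.96), Fcgrt (0.94) and Bach2 (0.92). Trib2 was closest to Scimp and Slc14a1 (r = 0.96 each), Gpam to Ndrg1, Phf11a and Trip10 (r = 0.96 each), and Diras2 to Mpc1 (r = 0.91). Pafah1b3 was closest to Cd2 (r = 0.96), Ehd4 to Prkcd (r = 0.95) and Rgl1 to Arhgap17 (r = 0.92). The mean of the 8 genes was closest to Mpc1 and Cnp (r = 0.97 each), Phf11b (0.96), Scimp and Bach2 (0.95 each). Over the 10 cultured libraries without plasmablast KO library 3, the mean of the 7 genes was closest to A630023P12Rik (r = 0.99). With group means removed, the 28 pairs among the 8 genes had a median r of 0.24 over the 12 naive libraries, from -0.35 to 0.86, and 0.16 without KO guide 1 library A. Over the 10 cultured libraries the 21 pairs among 7 genes had a median r of -0.40, from -0.93 to 0.86, and 0.09 without both activated libraries 3 as well.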

How the data were processed

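The 9 genes, the gene lists and the tests were chosen with earlier results of these data known. The deposited values are RPKM, which the authors computed in a table of naive and a table of cultured libraries, so levels were tested only within a table. Per the labels' protocols, cDNA came from a SMART-seq v4 kit and libraries from a NexteraXT kit. The submitters' processing notes name STAR and the mm10 build, while the counting tool and annotation are not given in the sources used here. RPKM steps at low values gave each library's estimated reads (100% of low values within 0.2 of whole reads), and few reads limit the precision of low genes.

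Values were analysed as log2(RPKM + 1) for genes at 1 RPKM or more in at least 2 libraries of a table. This kept 10137 of 11548 naive genes (8 of the 8 chosen genes listed there), 9986 of 10574 cultured genes (7 of 8) and 9861 cultured genes when 3 libraries were left out. R 4.3.3 and limma 3.58.1, tested on simulated data, fitted group means per table with a trend in the spread. Tests were two-sided, adjusted over every gene of a fit (Benjamini-Hochberg) and called at 0.05. The naive KO minus WT value averages the difference of the guide 1 arm and that of the guide 2 arm. No label calls the libraries separate animals or cultures, so a p-value here reflects only spread between libraries, which may be technical. In each pathway list called genes were ranked by adjusted p and up to 4 were open to naming. RefSeq gave names and GRCm38.p6 coordinates for 11540 naive and 10568 cultured genes. In GENCODE transcripts of this build, words of 31 bases shared with other genes made up 1.3% of Kmo, 0.528% of Diras2, 0.346% of Rgl1 and none of the other genes, and no exon of the 9 genes overlapped another gene.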

Additional observations from a re-analysis of the deposited data

How the results depend on the processing

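Depth limits the lowest values: plasmablast KO library 3 had 51300 estimated reads, with 0 to 7 for each of these genes, and Wfdc17, Diras2 and Rgl1 rest on 0 to 123 reads per naive KO library. The alternatives were another pseudocount, no filter, no trend, centring on library medians, a replicate block and each library left out. The choice of the genes fixes the sign of their naive KO minus WT differences, so nothing is read from its being kept. Leaving out plasmablast KO library 3 and both activated libraries 3 gave 70 called genes for activated KO minus WT and 7 for plasmablast KO minus WT (0 each with all libraries, with 2 and 85 at an unadjusted p under 0.05), 3318 for KO plasmablasts minus KO activated B cells (344) and 4565 for WT plasmablasts minus WT activated B cells (176). Without plasmablast KO library 3 alone the counts of the last pair were 3033 in KO cells and 3303 in WT cells. The fit pools the spread of each gene over all groups of a table. Plasmablast KO library 3 thus entered the SE of the WT comparison without being part of it. The causes of the changes in count were not tested further.

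Same-numbered or same-lettered libraries deviated together with r of -0.105 to 0.176 in naive cells (6 of 18 pairs over 0.1) and -0.243 to 0.254 in cultured cells (1 of 15), so the numbers were not taken as pairs. The replicate block gave 200 called naive genes, 192 for KO plasmablasts minus KO activated B cells, 120 for WT plasmablasts minus WT activated B cells and 0 in the other comparisons.

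With 1 library left out, the count of called genes was 73 to 387 for naive KO minus WT (191 with all), 0 to 0 for activated and for plasmablast KO minus WT, 22 to 3033 for KO plasmablasts minus KO activated B cells and 0 to 3303 for WT plasmablasts minus WT activated B cells. The naive count was moved by over 1.5 times by KO guide 1 libraries A (387) and B (384), KO guide 2 A (80) and B (93), WT guide 1 A (107), B (100) and C (80), and WT guide 2 A (111), B (73) and C (84). The KO plasmablast count was so moved by each library but activated WT 3, to 22 at the lowest without activated KO 2, and the WT plasmablast count by activated KO 1 (89) and 2 (74), activated WT 1 (28) and 2 (27), plasmablast KO 3 (3303) and plasmablast WT 1 (23) and 2 (0).

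Signs turned in differences that were not called with all libraries. Trib2 in WT cells (-0.14) was 0.03 with centring and 0.00 without the 3 libraries, and ranged from -0.23 to 0.00 with 1 library left out, 0.00 being without activated WT 3. Trib2 in KO cells (-0.62) ranged from -0.93 to 0.00, the last without plasmablast KO 3. Gpam in KO cells (0.16) was -0.51 without the 3 libraries and ranged from -0.45, without plasmablast KO 3, to 0.48. Pafah1b3 in KO cells (-0.07) was 0.09 with centring, 0.21 without the 3 libraries, and ranged from -0.42 to 0.47, with 0.10 without activated KO 1, 0.03 without activated KO 2 and 0.47 without plasmablast KO 3.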
